A study of Mus musculus with 12 samples.

Results

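The transcription factors that hold mouse embryonic stem cells (ESCs) in the naive pluripotent state were examined after transient loss and gain of the Yes-associated protein (YAP), which has no DNA-binding domain of its own, acts with TEAD factors and is held in check by the Hippo kinases. The set is a list of gene names and held 10 of the 24480 genes in the expression tables: Pou5f1, Sox2, Nanog, Klf2, Klf4, Klf5, Esrrb, Tbx3, Tfcp2l1 and Zfp42. All 10 passed the filter on low counts in every comparison. RNA came from E14Tg2a cells, a feeder-independent ESC line, kept undifferentiated. The study maintained this line in medium with fetal bovine serum and leukemia inhibitory factor (LIF). In the knockdown the cells received siRNAs against mouse YAP (YAP KD) or scrambled siRNAs (CTR KD). In the overexpression they received a plasmid encoding mouse YAP, driven by the ubiquitous CAG promoter (YAP OE), or a control plasmid (CTR OE), given by the labels as encoding GFP and by the methods of the study as an empty vector. Each of the 4 groups had 3 libraries, 12 in all, from experiments described as independent, and no control library was shared between the experiments. The question was how far the level of each factor moved when YAP was lowered or raised, and how large a change the data leave possible.

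Naive pluripotency is the ground state of the early epiblast, and in culture it is kept by a network of transcription factors that bind each other's enhancers. Pou5f1 (OCT4), Sox2 and Nanog form its core, with POU5F1 and SOX2 binding composite sites side by side. The Krüppel-like factors Klf2, Klf4 and Klf5 share target genes and partly replace each other, and Esrrb, Tbx3 and Tfcp2l1 connect the core to LIF and WNT signalling. Zfp42 (REX1) is used as a reporter of the naive state, since it is lost early as cells leave it.

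The letters of this wiring can be seen in front of some of the genes. In the RefSeq sequences of the GRCm38.p6 build (the mm10 assembly), the 250 bases before the start site were at hand for 8 of the 10 genes in 11 windows, with 2 start sites each for Pou5f1, Nanog and Esrrb, and Klf5 and Tbx3 are only named here. The octamer letters TTTGCAT, read on both strands, form the POU part of the composite site. They stood in 4 of the 11 windows, which belong to Nanog, Sox2 and Zfp42, and in 4.12% of 32851 windows of all genes. Both windows of Nanog hold the same octamer, so the 4 windows stand for 3 of the 8 genes with 1 site each. Each is shown with its surroundings, 5′ to 3′ on the strand of the gene, with the octamer in capitals, because these genes include 2 of the 3 core factors and the reporter of the state.
Nanog, chr6:122707403-122707432, plus strand: ttacagcttctTTTGCATtacaatgtccat
Sox2, chr3:34649885-34649914, plus strand: cgccccctttcATGCAAAaccctctggcga
Zfp42, chr8:43307176-43307205, minus strand: ctgaagaggcaTTTGCATaactgagcaaga
The octamer began 75 bases before 1 of the 2 start sites of Nanog, 99 bases before the start site of Sox2 and 185 bases before that of Zfp42. The letters GGAATG, which TEAD factors recognise, were present on either strand in 12.6% of all windows and in 1 of the 11, that of Zfp42, where they began 45 bases before the start site on the other strand and are again in capitals.
Zfp42, chr8:43307037-43307066, minus strand: cttctcattgggCATTCCagcctacccagc
The KLF letters CACACCC, also read on both strands, stood in 2 of the 11 windows, of Zfp42 and Esrrb, and in 6.93% of all windows. The ESRRB letters AAGGTCA were in none of the 11 windows and in 4.08% of all. A match of letters is a description of the sequence and does not show that a factor binds there.

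The targeted gene was checked first. Yap1 stood at 116, 135 and 125 CPM (the expected count relative to library size, with library sizes scaled by the trimmed mean of M values, TMM) in the CTR KD libraries and at 58.5, 54.9 and 56.6 in YAP KD, which is 45.3% of control (log2 fold change -1.14, SE 0.057, adjusted p = 4.36e-05). In the overexpression it stood at 134, 130.2 and 134 CPM in CTR OE and 277, 256 and 244 in YAP OE, which is 195% of control (log2 fold change 0.97, SE 0.047, adjusted p = 3.47e-08). The depth was 4.29e+07 to 5.72e+07 expected counts a library, and from 17618 to 18167 genes had a count. No 2 replicates agreed within counting noise (a chi-square of 3.54 to 25.7 for each degree of freedom), and all were kept as separate samples. Markers of fibroblast feeder cells had a summed level of 1.89 to 3.18 CPM over the 7 genes listed. In bulk RNA, fewer cells that express a gene and less RNA per cell cannot be told apart.

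All 10 factors were well expressed in every library, with between 2025 and 60456 counts each. Genes can be compared with each other only per transcript length, so levels are given here as CPM per kilobase of effective length, averaged over the 12 libraries. Pou5f1 was the highest at 880.5 CPM per kilobase, at position 167 among 15022 genes ordered by this level, followed by Zfp42 at 454. Nanog at 195, Sox2 at 185, Esrrb at 146 and Klf2 at 104 formed the middle. Tfcp2l1 at 56.0, Klf5 at 36.2 and Klf4 at 30.5 were lower, and Tbx3 was the lowest at 11.4, at position 5267. The span from the first to the last was 77.4-fold.

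This order was nearly the same in all 4 groups. The single exchange was Sox2 standing above Nanog in YAP KD (191 and 188 CPM per kilobase), where the libraries of both genes overlapped. Klf5 and Klf4 overlapped in both knockdown groups but not in the overexpression groups. No other neighbours in the order overlapped within any group. The span between Pou5f1 and Tbx3 was 72.9-fold in CTR KD and 69.5-fold in YAP KD, and 83.0-fold in CTR OE and 87.4-fold in YAP OE.

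**Figure D1:**
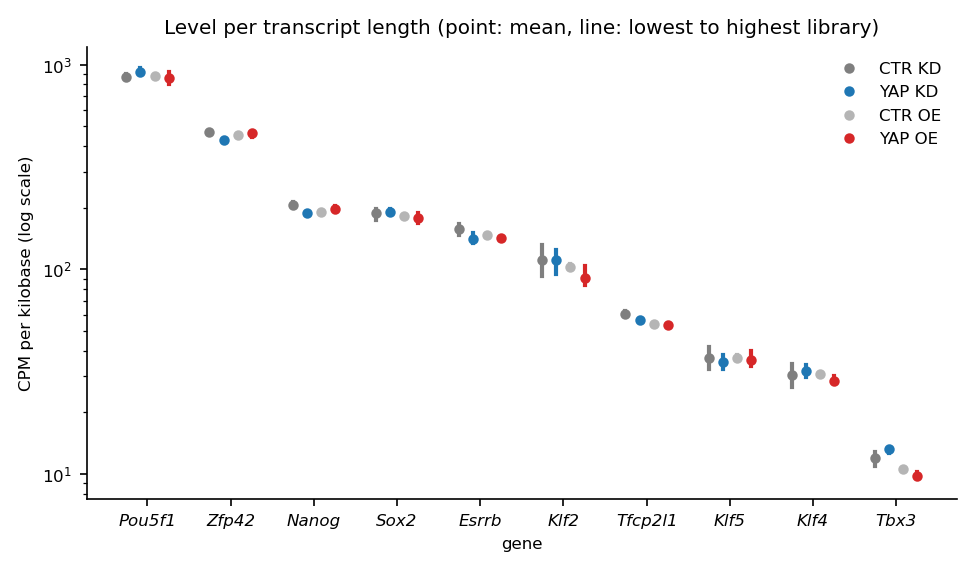
Level of each factor in CPM per kilobase of effective length on a log axis, for the 4 groups (n = 3 libraries each). Points are means and lines run from the lowest to the highest library, and the genes keep their order from Pou5f1 (880.5 over all 12 libraries) to Tbx3 (11.4) except for Sox2 and Nanog in YAP KD.

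In the knockdown, none of the 10 factors passed the threshold (edgeR quasi-likelihood F test, Benjamini-Hochberg adjusted p under 0.05 over 14606 genes), where 5.49% of all genes tested did, 2.71% higher and 2.78% lower in YAP KD. The lowest adjusted p-values belonged to Nanog (0.0959), Zfp42 (0.0997), Esrrb (0.159) and Tfcp2l1 (0.194), with changes in level between -10.2% (Esrrb) and -6.86% (Tfcp2l1). At an unadjusted p under 0.05 there were 5 factors, these 4 and Tbx3, against 19.6% of all genes. The count of 0 depended on the fit. With a trend on GC content removed, a correction chosen after seeing the data, 3 factors passed, Nanog (adjusted p = 0.0398), Esrrb (0.0387) and Zfp42 (0.0341), and in 1 fit over all 12 libraries 2 passed, Nanog (0.0426) and Zfp42 (0.0465). Both fits also called more genes in all, 1375 and 1261 in place of 802. With replicate number as a block the count of all genes fell to 193 and no factor passed. With 1 library left out it fell as low as 298, without CTR KD library 3. DESeq2 and limma-voom called none of the 10.

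Among the core factors, Pou5f1, the POU factor whose dose sets the fate of ESCs, was at 988, 1059.9 and 1031 CPM in CTR KD and 1128, 1041 and 1056 in YAP KD (log2 fold change 0.069, SE 0.045, 95% interval -0.033 to 0.17, adjusted p = 0.462). The groups overlapped, with 2 of the 3 YAP KD libraries inside the range of the controls. Sox2, its partner, was at 399.9, 449 and 442 CPM in CTR KD and 439.8, 424 and 449.9 in YAP KD (log2 fold change 0.027, 95% interval -0.086 to 0.14, adjusted p = 0.830), and again 2 of the 3 YAP KD libraries lay within the control range. Nanog, the homeodomain factor that stabilises self-renewal, was at 407, 418 and 435 CPM in CTR KD and 388, 383 and 379 in YAP KD. Every YAP KD library lay below every control. The adjusted p was 0.0959, and the difference was -0.13 on the log2 scale (SE 0.039, 95% interval -0.22 to -0.043), a change of -8.68% in level with an interval from -14.1% to -2.93%.

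The Krüppel-like factors were the least certain. Klf2 was at 152, 216 and 178 CPM in CTR KD and 188, 155 and 205 in YAP KD, so that both groups spread widely around the same mean (182 CPM in each). Its log2 fold change was 0.0063 with the widest interval of the set, -0.28 to 0.29, which leaves a change between -17.4% and 22.1% possible. Klf4, one of the reprogramming factors and a target of LIF signalling, was at 76.4, 98.5 and 87.3 CPM in CTR KD and 97.9, 85.5 and 91.3 CPM in YAP KD (log2 fold change 0.069, 95% interval -0.12 to 0.26, adjusted p = 0.725), and all 3 YAP KD libraries lay within the control range. Klf5 was at 50.8, 64.8 and 55.3 CPM in CTR KD and 53.9, 50.5 and 59.1 CPM in YAP KD (log2 fold change -0.061, 95% interval -0.25 to 0.13, adjusted p = 0.769). The sign of Klf2, Klf4 and Klf5, and that of Sox2, turned when single libraries were left out, so no direction can be given for these 4.

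Of the factors that link the core to signalling, Esrrb, an orphan nuclear receptor downstream of GSK3 inhibition, was at 592, 673 and 624 CPM in CTR KD and 601, 552 and 541 in YAP KD. It had the largest absolute value of the set, -0.16 on the log2 scale (SE 0.056, 95% interval -0.28 to -0.029, adjusted p = 0.159), and the highest YAP KD library overlapped the lowest control. Tfcp2l1, a LIF target of the grainyhead family, was at 538, 544 and 569.8 CPM in CTR KD and 523, 515 and 498 CPM in YAP KD, with every YAP KD library below every control (log2 fold change -0.10, SE 0.041, 95% interval -0.19 to -0.012, adjusted p = 0.194). Tbx3, a T-box factor, was at 49.2, 58.1 and 54.7 CPM in CTR KD and 59.9, 56.8 and 61.4 CPM in YAP KD. It had the only positive value whose unadjusted interval lay clear of 0 (0.14, 95% interval 0.0028 to 0.28, adjusted p = 0.243), and the groups overlapped. With relative log expression factors in place of TMM the interval began at -0.0014 and so held 0. Without CTR KD library 2 its value was 0.19 with an adjusted p of 0.0499. Over all left-out libraries the value ran from 0.072 to 0.19 and the adjusted p from 0.0499 to 0.519.

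Zfp42, the reporter of the naive state, was at 779, 746 and 764 CPM in CTR KD and 705, 708 and 675 in YAP KD, again with every YAP KD library below every control. Its log2 fold change was -0.13 (SE 0.040, 95% interval -0.22 to -0.042), a change of -8.68% with an interval from -14.2% to -2.86%. Groups that did not overlap were thus seen for Nanog, Tfcp2l1 and Zfp42, 3 of 10, where 25.7% of all genes tested in the knockdown had groups that did not overlap.

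**Figure D2:**
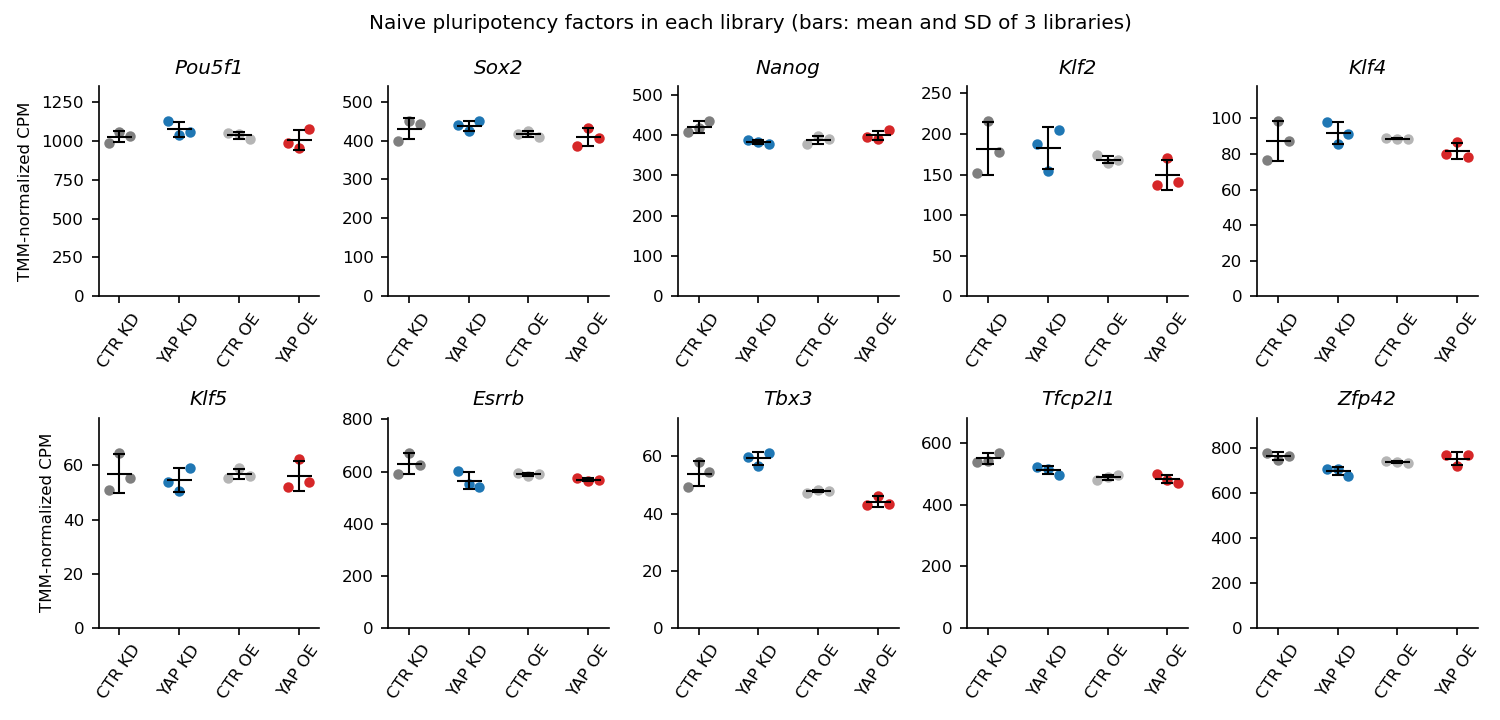
TMM-normalized CPM of each factor in each of the 12 libraries, by group, on axes that start at 0. Points are libraries and bars show mean and SD (n = 3). The widest scatter is that of Klf2 in the knockdown groups (152 to 216 CPM in CTR KD), and Nanog, Tfcp2l1 and Zfp42 lie lower in every YAP KD library than in every CTR KD library.

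In the overexpression, again none of the 10 factors passed the threshold, against 2.13% of 14804 genes, 1.66% higher and 0.473% lower in YAP OE. Unadjusted, Klf2, Klf4 and Tbx3 were under 0.05, 3 of 10 against 13.1% of all genes. DESeq2 and limma-voom called none. No setting that kept all 6 libraries called a factor except a filter at 1 count in any library, under which Klf2 passed (adjusted p = 0.0332). Leaving out YAP OE library 2 let Klf2 (log2 fold change -0.28, adjusted p = 0.0018) and Klf4 (-0.16, adjusted p = 0.0473) pass, and that library had the highest level of both genes in its group.

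The core factors differed little. Pou5f1 was at 1050.2, 1045 and 1012 CPM in CTR OE and 987, 952 and 1077 in YAP OE (log2 fold change -0.042, 95% interval -0.15 to 0.067, adjusted p = 0.808), with YAP OE libraries on both sides of the controls. Sox2 was at 416, 424 and 409 CPM in CTR OE and 385, 432 and 406 CPM in YAP OE (log2 fold change -0.029, 95% interval -0.13 to 0.071). Nanog was at 378, 397 and 391 CPM in CTR OE and 396, 390.4 and 412 CPM in YAP OE (log2 fold change 0.040, 95% interval -0.050 to 0.13, adjusted p = 0.767), and the groups of all 3 core genes overlapped.

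Klf2 had the largest value, -0.18 on the log2 scale (SE 0.064, 95% interval -0.31 to -0.041, adjusted p = 0.214), from 174, 165 and 167 CPM in CTR OE to 136, 170.0 and 140.2 in YAP OE. Of the YAP OE libraries 2 lay below all controls and 1 lay among them. Klf4 was at 88.9, 88.2 and 88.6 CPM in CTR OE, a range of under 1 CPM, and at 80.1, 86.9 and 78.5 in YAP OE, all below the controls (log2 fold change -0.11, SE 0.042, 95% interval -0.20 to -0.024, adjusted p = 0.228). Klf5 was at 55.5, 58.9 and 56.2 CPM in CTR OE and 52.0, 62.2 and 54.0 CPM in YAP OE (log2 fold change -0.022, 95% interval -0.14 to 0.10), with the controls inside the range of YAP OE.

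Tbx3 was at 47.3, 48.1 and 48.0 CPM in CTR OE and 42.9, 46.3 and 43.5 in YAP OE, all below the controls (log2 fold change -0.11, SE 0.042, 95% interval -0.20 to -0.024, adjusted p = 0.228). Esrrb, at 596, 582 and 589 CPM in CTR OE and 576, 563 and 567 CPM in YAP OE, also did not overlap, at a smaller value (-0.050, 95% interval -0.14 to 0.037, adjusted p = 0.677). Tfcp2l1 was at 481, 491 and 497 CPM in CTR OE and 499, 479.5 and 472 CPM in YAP OE (log2 fold change -0.017, 95% interval -0.11 to 0.073), and Zfp42 at 743, 738 and 733 CPM in CTR OE and 769, 719 and 767 CPM in YAP OE (log2 fold change 0.026, 95% interval -0.068 to 0.12), both overlapping. Klf4, Esrrb and Tbx3, 3 of 10, had groups that did not overlap, where 18.2% of all genes tested in the overexpression did.

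How far the factors could have moved is given by the intervals, which hold for 1 gene at a time and were not adjusted over the 10. In both experiments all 10 intervals lay inside a 1.3-fold change either way, as did those of 66.2% of all genes in the knockdown and 71.8% in the overexpression. Within 1.2-fold were 7 factors in the knockdown, all but Klf2, Esrrb and Tbx3 (50.6% of all genes), and 9 in the overexpression, all but Klf2 (60.0%). Within 1.1-fold were none of the 10 in the knockdown (11.8%) and 5 in the overexpression (24.2%). These folds were chosen after the values were seen. Under the 12 alternatives that give an interval and every left-out library, 9 factors stayed inside 1.3-fold in both experiments. Klf2 passed it in the knockdown with robust estimation (-24.4% to 33.4%) and without YAP KD library 2 (-10.9% to 31.1%) or YAP KD library 3 (-23.8% to 15.8%), and in the overexpression in 1 fit over all 12 libraries (-25.5% to 4.77%). The median distance from the estimate to the end of its interval was 0.12 on the log2 scale for the factors and 0.16 for all genes in the knockdown, and 0.092 and 0.13 in the overexpression. Of 15049 genes kept over the 12 libraries, 8510 had a mean of at least 10 CPM, and every factor was above that level. The values for all genes thus include many genes at lower levels than any factor, and intervals were not compared among genes of like level.

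**Figure D3:**
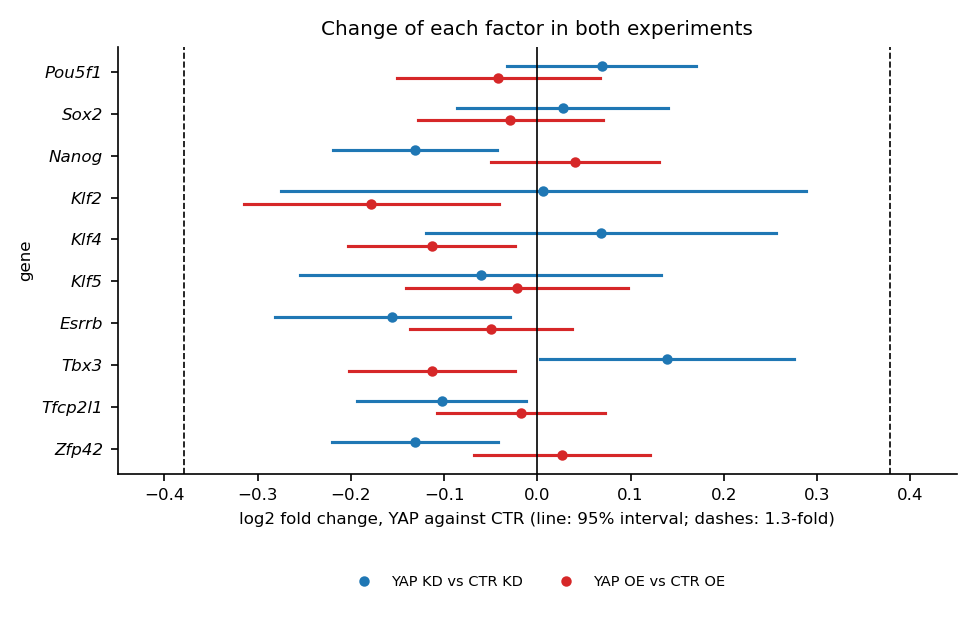
Log2 fold change of each factor, YAP against CTR, with its 95% interval, in the knockdown (blue) and the overexpression (red), n = 3 libraries per group. Dashes mark a 1.3-fold change either way, and all intervals lie between them, the widest being that of Klf2 in the knockdown (-0.28 to 0.29).

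The sizes of the changes can be set beside those of all genes. The median absolute log2 fold change was 0.086 over the 10 factors and 0.085 over all genes tested in the knockdown, and 0.041 and 0.064 in the overexpression. The medians over all genes again include genes at lower levels than any factor. The factors did not share a direction, with 5 values above and 5 below 0 in the knockdown (median -0.027) and 2 above and 8 below in the overexpression (median -0.035), beside medians of 0.0058 and -0.0025 over all genes. Values had opposite signs in the 2 experiments for 7 of the 10 factors, where 60.9% of 14521 genes did. Nanog and Zfp42 were below 0 in the knockdown and above 0 in the overexpression, Pou5f1, Sox2, Klf2, Klf4 and Tbx3 were the other way round, and Klf5, Esrrb and Tfcp2l1 were below 0 in both. These are signs of the main fit. Those of Sox2, Klf2, Klf4 and Klf5 in the knockdown, and of Sox2 and Klf5 in the overexpression, turned when single libraries were left out.

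Whether the effects of gain and loss differed was tested directly, as the YAP OE effect minus the YAP KD effect over all 12 libraries. None of the factors passed (8.8% of 15049 genes did, 5.24% in the positive and 3.56% in the negative direction), but 3 were close to the threshold. Tbx3 had a difference of -0.25 on the log2 scale (95% interval -0.41 to -0.087, adjusted p = 0.0547), Nanog of 0.17 (95% interval 0.057 to 0.29, adjusted p = 0.0616) and Zfp42 of 0.16 (95% interval 0.041 to 0.28, adjusted p = 0.0910). These were the same 3 that were under an unadjusted p of 0.05 (22.5% of all genes). The side of the threshold depended on the fit for these 3. Tbx3 passed in 5 of the 13 other fits to all libraries, GC correction among them (adjusted p = 0.0209), Nanog in 5, upper-quartile scaling among them (adjusted p = 0.0387), and Zfp42 in 1, DESeq2 (adjusted p = 0.0455). DESeq2 called all 3. Left-out libraries also moved calls. Nanog passed without CTR KD library 1, Tbx3 and Klf4 without CTR KD library 2, and Tbx3 and Zfp42 without YAP OE library 2. With all libraries kept, the other 7 factors had adjusted p-values from 0.328 to 0.884, and the widest interval was again that of Klf2 (-0.53 to 0.16).

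**Figure D4:**
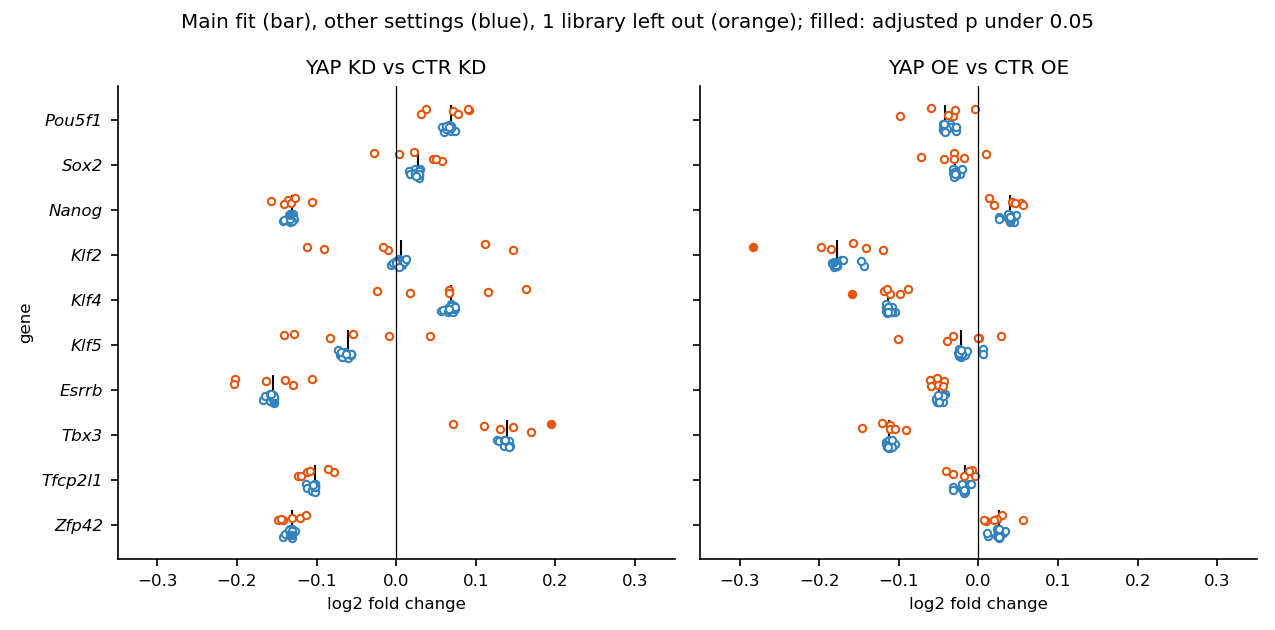
Log2 fold change of each factor in the knockdown (left) and the overexpression (right) as first fitted (black bar), under other settings (blue) and with 1 library left out (orange), with filled points where the adjusted p was under 0.05. Other settings moved the values little, while left-out libraries moved Klf2 from -0.11 to 0.15 in the knockdown.

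The precision behind these values differed between factors far more than counting error. Klf2 had a coefficient of variation (CV) of 17.6% in CTR KD, where its counts alone give 1.06%, and of 14.1% in YAP KD, 2.74% in CTR OE and 12.3% in YAP OE. Klf4 ranged from 0.406% in CTR OE to 12.7% in CTR KD and Klf5 from 3.14% to 12.5% in the same groups. In CTR OE the counts of Klf4 alone give 1.49%, and Tbx3 had 0.870% where its counts alone give 2.02%. The control ranges that Klf4 and Tbx3 were set against in the overexpression were thus narrower than counting error gives. By contrast, Nanog stayed between 1.16% and 3.34% in the 4 groups and Zfp42 between 0.688% and 3.76%. The median CV of the 10 factors was 6.30% in CTR KD, 4.14% in YAP KD, 1.78% in CTR OE and 4.82% in YAP OE, and that of genes with at least 10 CPM was 4.48%, 3.51%, 2.99% and 3.92%.

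Some of the factors varied together among replicates. After the mean of each group was subtracted, the log2 levels of Klf2 and Tbx3 had r = 0.94 over the 12 libraries, Klf2 and Klf5 r = 0.94, Klf5 and Tbx3 r = 0.93, and Sox2 and Tbx3 r = 0.92. Zfp42 went the other way, with r = -0.90 to Klf5 and r = -0.84 to Klf2. Over all 45 pairs 32 were positive, with a median r of 0.24. These are descriptions over libraries that share depth and scaling. Klf2, Klf4, Klf5, Tbx3 and Sox2 were all low in CTR KD library 1 (Klf2 by -0.24 on the log2 scale), YAP KD library 2 and YAP OE library 1. All of them were high in CTR KD library 2 (Klf2 by 0.26) and YAP OE library 2.

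The libraries also differed in how read counts followed the GC content of transcripts. Across 11815 genes, the slope of the deviation from the group mean was 0.11 on the log2 scale per 10 percentage points of GC in CTR KD library 2 and -0.059 in CTR KD library 1, with the other 10 libraries between -0.047 and 0.032. In YAP OE library 2, where Klf2, Klf4, Klf5, Tbx3 and Sox2 were also high, the slope was 0.0027. The transcripts of Klf2 (61.6% GC) and Klf5 (60.3%) were richer in GC than the median gene (50.7%), and those of Nanog (45.8%), Zfp42 (46.6%) and Tfcp2l1 (47.0%) were poorer. Over the 12 libraries the deviation of a factor had r with this slope of 0.74 for Esrrb, 0.74 for Klf4, 0.69 for Klf2 and 0.64 for Tbx3, and of -0.35 for Zfp42 and -0.045 for Nanog. With the trend removed, the estimates themselves stayed close (in the knockdown Nanog -0.13, Esrrb -0.15 and Zfp42 -0.13). The part of GC content in the spread of the factors was not tested.

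**Figure D5:**
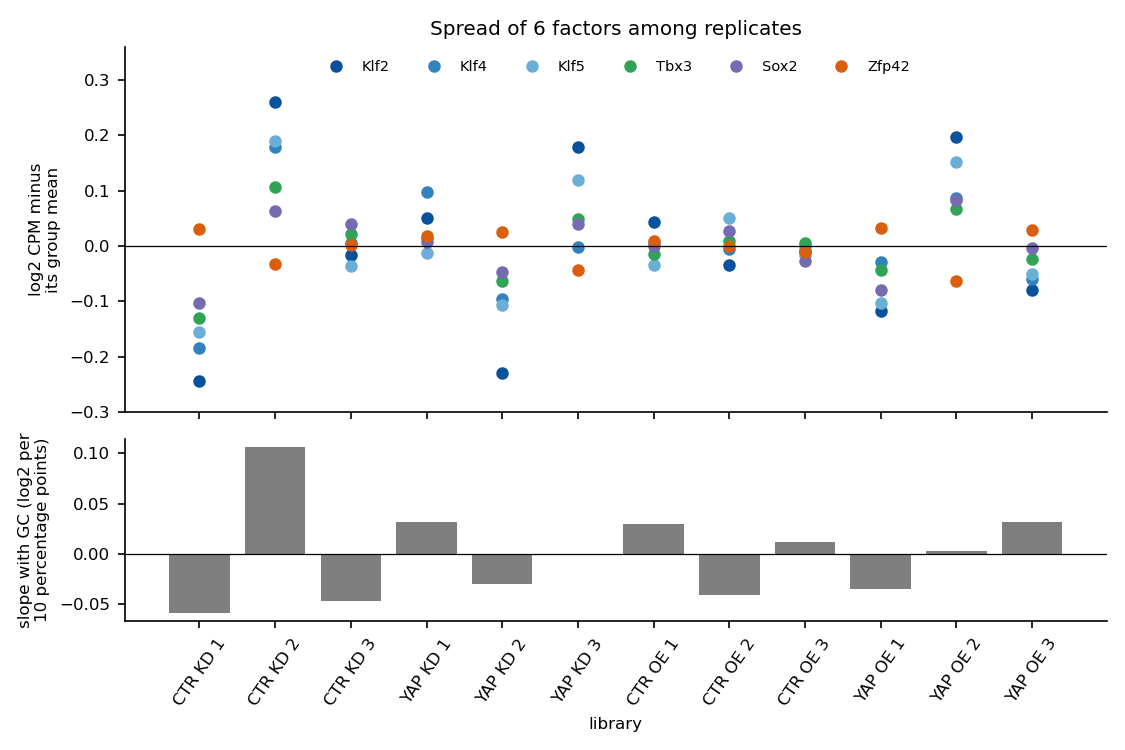
Upper panel, deviation of 6 factors from the mean of their group in log2 CPM, by library. Lower panel, slope of all genes' deviations with transcript GC content in the same libraries, in log2 per 10 percentage points. Klf2, Klf4, Klf5, Tbx3 and Sox2 lie low in CTR KD 1 and high in CTR KD 2, Zfp42 lies opposite, and the slope is highest in CTR KD 2 (0.11) and lowest in CTR KD 1 (-0.059). In YAP OE 2 the same genes lie high at a slope of 0.0027, and in CTR KD 3 Klf2 lies at -0.017 at a slope of -0.047.

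The other genes of the network were counted from lists written by role. Of 20 other DNA-binding regulators of the network, 1 was higher in YAP KD, the ETS factor Etv4 (log2 fold change 0.34, SE 0.050, adjusted p = 0.00527), and 1 was lower in YAP OE, the orphan nuclear receptor Nr0b1 (log2 fold change -0.19, SE 0.045, adjusted p = 0.0422), a call lost under 3 alternatives and 5 left-out libraries. The median log2 fold change of the 20 was 0.038 in YAP KD and -0.041 in YAP OE. Among 18 other genes of the naive state, 2 were lower in YAP KD, Gdf3, a TGF-β family ligand (log2 fold change -0.18, SE 0.042, adjusted p = 0.0343), and Ooep (log2 fold change -0.24, SE 0.052, adjusted p = 0.0290), with a median of -0.052 over the 18. In YAP OE none of them passed by edgeR or limma-voom, 1 by DESeq2 and 3 at an unadjusted p under 0.05, with a median of -0.0014. The call on Gdf3 was lost under 2 alternatives and 4 left-out libraries, and that on Ooep under 1 and 3. Shares called in these lists can be read against 5.49% and 2.13% of all genes.

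Among 15 genes of the LIF, BMP and WNT inputs, the BMP targets Id1 and Id3, which hold back differentiation, were higher in YAP KD. Id1 was at 20.4 ± 0.657 CPM (SD, n = 3) against 11.9 ± 0.326 (log2 fold change 0.79, SE 0.054, adjusted p = 0.00011) and Id3 at 9.20 ± 0.569 against 5.79 ± 0.473 (log2 fold change 0.68, SE 0.084, adjusted p = 0.00234). Both calls held under all 14 alternatives and every left-out library. Pim1, a kinase gene induced by LIF, was lower (log2 fold change -0.33, SE 0.062, adjusted p = 0.0158), a call lost under 1 alternative and 3 left-out libraries. In YAP OE only Id1 passed, in the lower direction (log2 fold change -0.24, SE 0.058, adjusted p = 0.0434), and it failed under 6 of the 14 alternatives and whenever a library was left out. The median of the 15 was 0.032 in YAP KD and 0.030 in YAP OE.

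Formative and primed genes, which mark cells moving on from the naive state, had 2 calls in each experiment. In YAP KD 2 of 14 were higher, the neural factor Zic2 (log2 fold change 0.50, SE 0.091, adjusted p = 0.0137) and the intermediate filament gene Nes (log2 fold change 0.45, SE 0.046, adjusted p = 0.00073), and 11 of the 14 values were above 0, with a median of 0.21. Those below 0, named after their values were seen, were Otx2 (-0.16, adjusted p = 0.0870), Sox4 (-0.24, adjusted p = 0.178) and Dnmt3b. In YAP OE 2 were lower, Zic2 (log2 fold change -0.43, SE 0.061, adjusted p = 0.00118) and Sall2 (log2 fold change -0.34, SE 0.078, adjusted p = 0.0325), and 13 of 14 values were below 0, with a median of -0.25. The 1 above 0 was that of Otx2 (0.054, adjusted p = 0.748). Before adjustment, 9 of the 14 genes had a p under 0.05 in YAP KD, where 19.6% of all genes did. Otx2 and Sox4, both below 0, were among these 9. For YAP OE the unadjusted count was also 9 of 14, where 13.1% of all genes had such a p. The calls on Nes, and on Zic2 in YAP OE, held under all alternatives and left-out libraries, while Zic2 in YAP KD failed under 1 alternative and 3 left-out libraries and Sall2 under 2 and 4. The summed level of the 14 genes was 486 to 536 CPM in CTR KD and 509 to 542 CPM in YAP KD, and 545 to 594 CPM in CTR OE and 500.3 to 555 CPM in YAP OE. The largest part of this sum was Dnmt3b, named after its values were seen. It was at 223 CPM in YAP KD against 232 CPM in CTR KD (log2 fold change -0.058, adjusted p = 0.628), and at 274 CPM in YAP OE against 282 CPM in CTR OE.

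Markers of other cell states were counted in the same way, with their summed level in each group. Of 8 trophoblast markers, 4 were tested in the knockdown and 1 was higher in YAP KD, Tfap2c, at 79.5 ± 4.90 CPM against 57.5 ± 3.27 (log2 fold change 0.47, SE 0.057, adjusted p = 0.00217), and the summed level was 60.3 to 67.6 CPM in CTR KD and 81.4 to 90.8 CPM in YAP KD. Most of this sum was Tfap2c. Of the 4 values 2 were above and 2 below 0 (median 0.020), with Eomes at -0.32 (adjusted p = 0.497) and Ascl2 at -0.36 (adjusted p = 0.277), both named after their values were seen. In the overexpression 7 were tested and 3 were higher in YAP OE. These were Cdx2, the factor that specifies trophoblast, at 0.628 ± 0.0196 CPM against 0.148 ± 0.0687 (log2 fold change 2.05, SE 0.30, adjusted p = 0.00159), Gata3 at 1.04 ± 0.162 against 0.285 ± 0.0980 (log2 fold change 1.84, SE 0.25, adjusted p = 0.000886) and Ascl2 (log2 fold change 0.56, SE 0.14, adjusted p = 0.0459, lost under 4 alternatives and 5 left-out libraries), with a summed level of 59.96 to 64.1 CPM in CTR OE and 57.2 to 63.9 CPM in YAP OE. Of the 7 values 6 were above 0 (median 0.56), and the 1 below was that of Tfap2c (-0.16, adjusted p = 0.0935). Cdx2, Gata3 (0.262 CPM in YAP KD against 0.182 CPM in CTR KD) and Hand1 (0.377 CPM in YAP OE against 0.165 CPM in CTR OE) were too low to be tested in the knockdown. Elf5 was too low in both experiments. At such levels a gene can pass the filter on low counts only through the group where it is higher. The count of 6 and the median thus depend in part on that filter, and so may the calls on Cdx2 and Gata3. Of 9 primitive endoderm markers 8 were tested in YAP KD, where none passed by edgeR as first fitted, DESeq2 or limma-voom. Under 2 of the 14 alternatives 1 passed, and in the first fit 1 was at an unadjusted p under 0.05. In YAP OE 2 of the 9 were higher, Dab2 (log2 fold change 0.63, SE 0.11, adjusted p = 0.00645) and Sparc (log2 fold change 0.26, SE 0.039, adjusted p = 0.00223), with a summed level of 94.4 to 97.3 CPM in CTR OE and 107 to 115 CPM in YAP OE. Sparc made up most of this sum, at 67.9 CPM in YAP OE against 56.9 CPM in CTR OE. Of the 9 values 6 were above and 3 below 0 (median 0.11), and the 3, named after their values were seen, were the lineage factors Gata4 (-0.26, adjusted p = 0.431), Sox7 (-0.046, adjusted p = 0.974) and Sox17 (-0.013, adjusted p = 0.993).

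Markers of the 2-cell-like state, a rare state that ESC cultures pass through, had calls in both experiments. In YAP OE 4 of the 7 tested were higher, Zscan4c (log2 fold change 0.50, SE 0.088, adjusted p = 0.00593), Zscan4d (log2 fold change 0.70, SE 0.12, adjusted p = 0.00399), Zscan4f (log2 fold change 0.63, SE 0.071, adjusted p = 0.000209) and Gm4340 (log2 fold change 0.61, SE 0.13, adjusted p = 0.0169, lost under 3 alternatives and 3 left-out libraries), and their summed level over the 8 listed was 37.9 to 48.4 CPM in CTR OE and 57.9 to 72.0 CPM in YAP OE. In YAP KD 1 of 6 was lower, Zscan4f (log2 fold change -0.39, SE 0.088, adjusted p = 0.0333), a call lost under 2 alternatives and 4 left-out libraries. Of these 6 values 4 were below and 2 above 0 (median -0.36). The 2, named after their values were seen, were Gm4340 (0.17, adjusted p = 0.770) and Usp17lc (0.14, adjusted p = 0.824). The Zscan4 genes, and Gm4340 with its family, are near-identical copies, so their reads can be split between them. Of 8 mesoderm and neuroectoderm markers 6 were tested and only Tubb3, a neuronal tubulin, passed. Tubb3 was higher in YAP KD (log2 fold change 0.32, SE 0.055, adjusted p = 0.00975) and lower in YAP OE (log2 fold change -0.20, SE 0.046, adjusted p = 0.0353). The calls were lost under 3 left-out libraries in YAP KD and under 2 alternatives and 4 left-out libraries in YAP OE. In each experiment 2 of the 6 values were above and 4 below 0. The median was -0.14 in YAP KD, against the direction of Tubb3, and -0.20 in YAP OE. Of the 7 fibroblast feeder markers 4 were tested and none passed by edgeR as first fitted, DESeq2 or limma-voom, with 2 at an unadjusted p under 0.05 in YAP KD and 0 in YAP OE. In YAP KD 1 of them passed under 1 of the 14 alternatives. No marker was at 0 in every library of an experiment. The part of other cell states in the values of the 10 factors was not tested.

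The genes whose levels followed each factor most closely over the 12 libraries were taken from 8509 genes with at least 10 CPM. The closest was Ddx58 for Tbx3 (Pearson r = 0.98), then Psmb5 for Pou5f1 (r = 0.97), Gid8 for Zfp42 (r = 0.95), Kat6b for Tfcp2l1 (r = 0.95) and Ung for Sox2 (r = 0.94). Fbrsl1 led for Klf2 (r = 0.94), Smarcd1 for Klf4 (r = 0.94), Zcchc3 for Klf5 (r = 0.92), Rnf40 for Esrrb (r = 0.92) and Gpc3 for Nanog (r = 0.92). None of the 10 factors had another of the 10 as its closest gene. These values describe 12 libraries of 4 groups that share their scaling, and each is the highest of many.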

How the data were processed

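RNA of 12 libraries (4 groups of 3) was sequenced by the authors, who mapped reads to mm10 with STAR and estimated gene abundance with RSEM on curated RefSeq transcripts. Their versions and the strand setting are not given in the sources used here. The deposited files hold RSEM expected counts per gene, not normalized, with mean and effective transcript lengths. Expected counts of the 10 factors were whole in every library. The deposited TPM and FPKM columns were not used.

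Here the counts were rounded, and the 6 libraries of an experiment were fitted together in edgeR 4.0.16 (R 4.3.3) with filterByExpr and TMM factors. YAP was compared with CTR by the two-sided quasi-likelihood F test. P-values were adjusted over all genes kept (Benjamini-Hochberg), and the threshold was 0.05. The SE was the absolute log2 fold change divided by the square root of F, and 95% intervals used the t distribution. The effects of the experiments were compared over 12 libraries. CPM values were TMM-normalized over all libraries together. Replicates are described as independent, and p-values measure the spread between these samples.

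Alternatives were other scaling factors, other filters, entries under 200 bases left out, DESeq2 1.42.0, limma-voom (limma 3.58.1), robust estimation, effective length as an offset, a replicate block, 1 fit over all 12 libraries and each library left out. A lowess trend (span 0.3) on transcript GC content was removed in 2 alternatives added after the data were seen. GC content came from GENCODE transcripts for 93.1% to 93.4% of tested genes. The fitting steps were tested on simulated data. The members and gene lists were chosen with earlier results of these data known. All 10 members were named, with called genes of the lists (up to 6 per list and experiment), Yap1 and the genes most like each member.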

Additional observations from a re-analysis of the deposited data

How the results depend on the processing

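No factor reversed its direction with a call, and the direction of Nanog, Esrrb, Tbx3, Tfcp2l1, Zfp42 and Pou5f1 held in both experiments under all 14 alternatives and 6 left-out libraries, as did that of Klf2 and Klf4 in the overexpression. Where a call depended on the fit, the cause was not tested.

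In the knockdown, 802 genes were called, with 193 under the replicate block, 1375 with the GC trend removed, 1261 in 1 fit over all 12 libraries and 298 to 1019 with a library left out (298 without CTR KD library 3, 306 without YAP KD library 2, 360.0 without YAP KD library 1 and 369 without YAP KD library 3). Factors called were 3 with the GC trend removed, 2 in 1 fit over all 12 libraries and 0 to 1 with a library left out. Nanog (-0.13), Esrrb (-0.15) and Zfp42 (-0.13) passed with the GC trend removed, and Nanog (-0.13) and Zfp42 (-0.13) passed in 1 fit over all 12 libraries. Klf2 was at -0.0060 with upper-quartile factors, -0.0036 with a filter at 1 count in any library, -1.0e-04 with the GC trend removed and -0.00057 with the GC trend removed and the replicate block. Left-out libraries gave -0.028 to 0.058 for Sox2, -0.11 to 0.15 for Klf2, -0.024 to 0.16 for Klf4, -0.14 to 0.042 for Klf5 and 0.072 to 0.19 for Tbx3.

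In the overexpression, 316 genes were called, with 556 under a filter at 1 count in any library, where 1 factor, Klf2 (-0.18), passed, and 154 to 327 with a library left out (154 without CTR OE library 3, 168 without CTR OE library 1 and 181 without CTR OE library 2). Factors called were 0 to 2 with a library left out. Klf5 was at 0.0057 with the GC trend removed and 0.0051 with the GC trend removed and the replicate block. Left-out libraries gave -0.072 to 0.0098 for Sox2, -0.28 to -0.12 for Klf2, -0.16 to -0.088 for Klf4 and -0.10 to 0.029 for Klf5.

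For the difference between the experiments, 1325 genes were called, and 784 with the replicate block. DESeq2 called 3 factors, and 1 factor passed with upper-quartile factors, total counts, either other filter, limma-voom, robust estimation, the GC trend removed, and the GC trend removed with the replicate block. Nanog passed with upper-quartile factors (0.19), total counts (0.18), DESeq2 (0.17), limma-voom (0.17) and a filter at 1 CPM in 3 or more libraries (0.18). Tbx3 passed with a filter at 1 count in any library (-0.25), DESeq2 (-0.25), robust estimation (-0.25), the GC trend removed (-0.25) and the GC trend removed with the replicate block (-0.25). Zfp42 passed with DESeq2 (0.16). With a library left out, factors called were 0 to 2, with ranges of 0.15 to 0.19 for Nanog, -0.28 to -0.092 for Klf4, -0.065 to 0.12 for Klf5, -0.31 to -0.19 for Tbx3 and 0.14 to 0.19 for Zfp42.

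Replicate numbers are shared by the groups, but same-numbered libraries did not deviate together. Their deviations from the group means correlated with r of -0.42, -0.31 and 0.035 in the knockdown and 0.066, 0.091 and -0.029 in the overexpression. With the replicate block, calls went from 802 to 193 in the knockdown and from 316 to 280.0 in the overexpression, and no factor was called. With the GC trend removed as well, the knockdown had 666 calls, none of them a factor. With 3 libraries per group, the width of the printed intervals limits how small a change could be seen.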
